A study of Homo sapiens with 16 samples.

Results

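In U87-R, a glioma cell line made resistant to the alkylating drug temozolomide, 654 stretches of RNA carried m6A sites packed into dense chains. A chain was formed by joining neighbouring sites of the deposited reproducible U87-R site list that lay at most 100 nt apart on the same chromosome and strand, and chains of 5 or more sites were kept. They make up 654 of the 20371 chains of any size and hold 3848 of the 35207 listed U87-R sites (10.9%). The remaining 19717 chains had 1 to 4 sites. Because the chains were chosen from U87-R sites, their U87-R levels and site numbers are given as a description and without a test.

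The study mapped m6A with m6A-eCLIP, in which an antibody against m6A is crosslinked to fragmented polyA RNA and the modified bases are read from the sequenced fragments. U87 MG, the parental line (called U87 here), gave 3 eCLIP libraries from cells given the DMSO control. U87-R gave 3 libraries from cells given the DMSO control, with 50 µM temozolomide in their medium. U87-R given 50 µM STM2457, an inhibitor of the m6A writer METTL3, for 96 h gave 2 libraries, and its medium held the same 50 µM temozolomide. All cells are a single glioma line and its resistant derivative, and the labels do not tie replicates to separate cultures. The spread behind each p-value is thus that of these libraries and may be technical. The 8 input libraries are not analysed here.

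m6A is the most common internal modification of mRNA. The METTL3-METTL14 complex writes it within a short sequence called DRACH, most often in long internal exons and near stop codons, and reader proteins that bind it influence the decay, splicing and translation of the transcript. Next to the mRNA cap, a related base, m6Am, is written by another enzyme, PCIF1, and antibodies against m6A also bind m6Am.

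Each library lists called bases with a score of unstated formula. The untreated libraries listed 149477 to 192697 bases, and the STM2457 libraries listed 105900 and 110875. The lists hold no read counts, so depth is unknown and a score is not a methylation level. Less methylation and less RNA cannot be told apart in these values, nor can fewer cells carrying an RNA and less of it per cell. Of the glial and glioma markers, 6 of 10 had called bases (S100B, SOX2, FABP7 and AQP4 were at 0), and of the mesenchymal markers all 6 did. Of the neuron markers 3 of 4 had called bases (DCX was at 0), with summed scores of 148 to 172 in U87, 165 to 214 in U87-R and 230 and 304 under STM2457, mostly from TUBB3. Of the immune markers only CD68 did (157 to 403; PTPRC and CD3E were at 0). The endothelial markers summed to 2.77 to 49.1 per library, nearly all from PECAM1 (CDH5 was at 0), and the epithelial ones to 0 to 11.8, from KRT8 and KRT18 (EPCAM and CDH1 were at 0). The part of these RNAs in the results was not tested.

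The letters around member sites could be read where a site lay within RefSeq's promoter windows of GRCh38.p14, which run from 250 bases before to 50 bases after each listed transcript start. That covered 39 of the 3848 member sites, in 9 chains. The base at the site was A at all 39. In the sense direction the site was compared with DRACH, that is A, G or T, then A or G, then the modified A, then C, then A, C or T. The chain in SNX33, a gene for a sorting nexin of the endocytic pathway, is the only gene-internal chain with several readable sites, because RefSeq also lists a later start inside the gene. It is shown because it carries most of the DRACH sites that could be read. The site lies at the centre of each 21-base sequence, and the 5 bases centred on it are in capitals.
SNX33 chr15:75648836-75648856, plus strand: ggaggaggAGACTgtggacat
SNX33 chr15:75648843-75648863, plus strand: gagactgtGGACAtgagccct
SNX33 chr15:75648908-75648928, plus strand: tgggccatGGACAttgctttg
SNX33 chr15:75648910-75648930, plus strand: ggccatggACATTgctttgaa
SNX33 chr15:75648935-75648955, plus strand: gggagactGGACAgcatctgt
SNX33 chr15:75648983-75649003, plus strand: gagagattGAACTgtgtaagc
SNX33 chr15:75649021-75649041, plus strand: gcattcttGGACTgccttgtg
All but the fourth of these match DRACH. The first and the third kept high scores under STM2457 (102.6 and 136.7 in the 2 libraries for the first, 96.8 and 94.6 for the third). The second and the fifth, with the same GGACA centre as the third, were listed in neither STM2457 library. In the U87 libraries the second scored 98.5, 26.9 and 75.1 and the fifth 61.5, 92.5 and 77.8. The same 5 letters therefore stood at sites that were and were not called after treatment.

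The chains with most of their sites within 50 nt of a listed transcript start, called cap-proximal here, had other letters. They are shown because their difference between STM2457 and U87, given below, ran opposite to that of most dense chains. NQO1 encodes a quinone reductase of the oxidative stress response, PPP1R7 a regulatory subunit of protein phosphatase 1, HMGB1 a chromatin protein, and PSMC2 a proteasome subunit.
NQO1 chr16:69726552-69726572, minus strand: accgtgcaCTACAcacgcgac
NQO1 chr16:69726550-69726570, minus strand: cgtgcactACACAcgcgactc
NQO1 chr16:69726548-69726568, minus strand: tgcactacACACGcgactccc
PPP1R7 chr2:241150457-241150477, plus strand: ctgaggcgACAGAttccggaa
PPP1R7 chr2:241150473-241150493, plus strand: cggaaaggGGAAGagcagcca
HMGB1 chr13:30465926-30465946, minus strand: gctggagaGTAATgttacaga
PSMC2 chr7:103347666-103347686, plus strand: ggtgctgtGTAATcattaagg
The second NQO1 site, the first PPP1R7 site and the HMGB1 site are at listed transcript starts. None of the 31 readable sites of the 7 cap-proximal chains matched DRACH, which allows a share of up to 9.68% (3 counts of the total). In the gene-internal chains of SNX33 and the protocadherin gene PCDHGC3, 6 of 8 matched. Some readable sites of these chains also lie within 50 nt of a listed start, but not most of either chain's sites. Among other U87-R sites in the windows 105 of 2163 matched (4.85%, Wilson 95% interval 4.03 to 5.84), and 7.25% of all A's in the windows stand in DRACH. Of all U87-R sites within 50 nt of the start 55 of 2097 matched (2.62%), and of those further before it 56 of 105 (53.3%). The lack of a match is thus not read as a trait of the 7 cap-proximal chains. A DRACH match is common in windows of this length: 97.2% hold one on the sense strand and 99.8% on either strand.

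The dense chains were short. Their span had a median of 200 nt and ran from 19 to 920 nt, and neighbouring sites were a median of 40 nt apart. Of the 654 chains, 360 had 5 sites, 163 had 6, 65 had 7, 28 had 8 and 23 had 9, and 15 had 10 or more. At the lower limit, the 5-site chains with the highest combined scores included those in TUBB6 (a tubulin) and SEC61A1 (the translocon channel), and the lowest lay in ARRDC3. Just outside it, 4-site chains of comparable score lay in JUND, DDIT4 and SLFN5.

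Dense chains lay in 594 genes. Protein-coding genes hosted 643 of the 654, lncRNA genes 5, and 6 had no listed gene. Most genes held a single chain (544), 46 held 2, and 4 held 3. Of member sites in genes, 67.5% were within 5000 nt of the annotated 3′ end, against 55.3% of the other U87-R sites. Within 500 nt the shares were 8.49 and 8.31%, and within 200 nt 1.49 and 2.52%. Within 50 nt of a listed start lay 0.97% of member sites and 8.09% of the others. lncRNA genes held 0.76% of member sites and 2.42% of the others. These shares are of gene bodies, since exons were not annotated in the tables used here.

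Most sites of the dense chains were in the list of parental U87 cells and fewer were in that of STM2457-treated cells. Of the 3848 member sites, 3414 were in the reproducible U87 list (88.7%, Wilson 95% interval 87.7 to 89.7) and 1222 in the STM2457 list (31.8%, 30.3 to 33.2). Of the other U87-R sites, 78.5% were in the U87 list and 28.2% in the STM2457 list. A site outside the STM2457 list was not always uncalled, since 43.5% of member sites had a score in both STM2457 libraries. The first PPP1R7 site, for example, was outside the list with scores of 114.0 and 112.3. By chain, 348 of the 654 had every site in the U87 list and 2 had none. In the STM2457 list, 5 chains had every site, 206 had 1 site and 89 had none. Intervals here cover counting error only, and each list joins a group's libraries, so it has no replicate error.

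**Figure D1:**
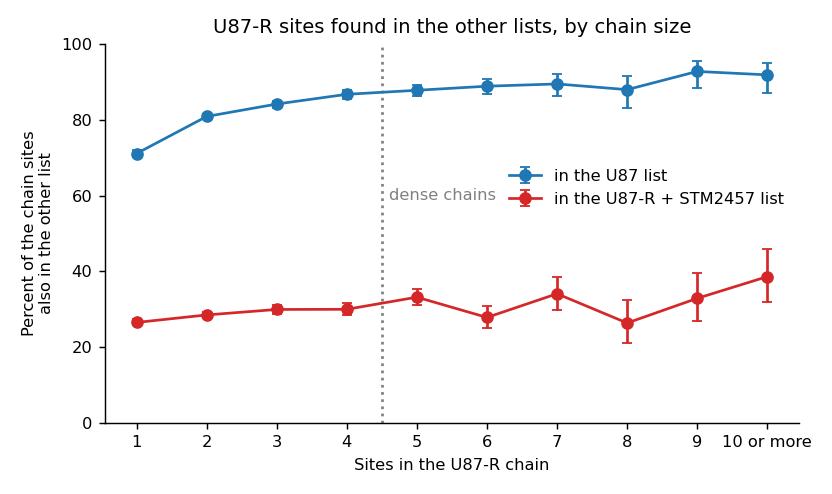
Percent of U87-R sites that are also in the U87 list (blue) or the U87-R + STM2457 list (red), by the number of sites in the U87-R chain; bars are Wilson 95% intervals. The share in the U87 list is 71.1% for single sites and 87.8% for 5-site chains, while the share in the STM2457 list is 26.5% and 33.2%.

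The share in the STM2457 list depended on the score. Sites of dense chains had a median combined U87-R score of 49.3, against 33.2 for other sites. Compared within bands of this score, member sites were less often in the STM2457 list than other sites. From 30 to 50, 16.8% of member sites (14.4 to 19.4) and 26.2% of other sites (25.3 to 27.2) were in it. From 50 to 80 the shares were 35.9% and 45.5%. Outside cap-proximal chains the gap in the first of these bands was narrower, at 16.4% (14.1 to 19.1) against 19.8% (18.9 to 20.7).

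Within a chain, the sites that scored highest in U87 were most often in the STM2457 list. Ranked by the mean score in the 3 U87 libraries, the top site of a chain was in the STM2457 list in 444 of 654 chains (67.9%, Wilson 95% interval 64.2 to 71.4). The share was 45.9% for the site ranked second, 33.6% for the third, 20.3% for the fourth and 10.4% for the fifth. Across 3194 neighbouring pairs of sites in a chain, which share their libraries and RNA, log2(mean score + 1) correlated with r = 0.31 in U87. Under STM2457 it was r = 0.01. There 40.0% of member sites were at 0 in both libraries, and the mean rests on 2 libraries, against 3 in U87. The part of these zeros in the lower r was not tested.

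**Figure D2:**
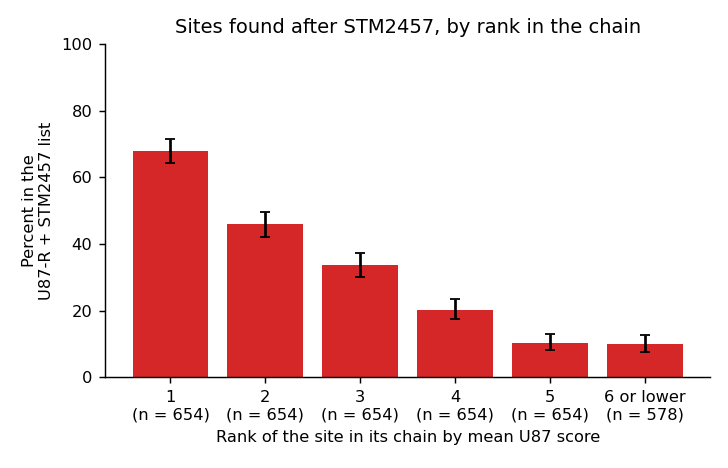
Percent of sites of the dense chains that are in the U87-R + STM2457 list, by the rank of the site within its chain in mean U87 score; bars are Wilson 95% intervals. The share runs from 67.9% for the top site to 9.86% for ranks 6 and lower.

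Counted per library, with any listed score, 95.2% ± 0.63 (SD, n = 3) of member sites were called in U87 and 51.7% ± 1.16 (SD, n = 2) under STM2457. In U87-R itself the share was 97.6% ± 1.68 (SD, n = 3). The U87 libraries called 94.5, 95.7 and 95.4% and the STM2457 libraries 50.9 and 52.5%, so the groups did not overlap. An exact two-sided permutation test gave p = 0.1, the smallest that 3 against 2 libraries allow. Other sites stood at 94.3% ± 0.89 in U87 and 55.4% ± 1.51 under STM2457. Member sites thus exceeded other sites by 0.89 ± 0.38 percentage points in U87 and fell short by 3.70 ± 0.35 under STM2457 (exact permutation p = 0.1, the smallest possible). Cap-proximal chains held 2446 of the other sites, with 82.5% of them in the STM2457 list, and 37 of the member sites. Outside these chains 31.3% of member sites and 23.6% of other sites were in that list. The share called per library was not computed for the latter, so the part of cap-proximal sites in the shortfall was not tested. With only scores of at least 10 counted, member sites exceeded the others under STM2457 too, by 0.26 and 0.83 points in its 2 libraries, and by 5.10 to 8.24 in U87. STM2457 was compared with U87 and not with U87-R, so the effect of the drug and the difference between the lines cannot be told apart.

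At single-base level, 1539 of the 3848 member sites (40.0%; 35.7% over all U87-R sites) were listed in neither STM2457 library, and 2725 had both STM2457 scores below all 3 U87 scores (70.8%; 62.4% over all U87-R sites). In the other direction, 142 member sites had both STM2457 scores above all U87 scores (3.69%, and 9.28% over all U87-R sites). In cap-proximal dense chains this held for 24 of 37 sites (64.9%), and in the other dense chains for 118 of 3811 (3.10%). The share over all U87-R sites was not computed without cap-proximal chains. Of the 654 chains, 608 had a site that was listed in neither STM2457 library, and 89 of them also had a site above all U87 libraries. A chain with more sites is more likely to hold such a site, and the share over all chains was not computed. Nothing is therefore read from these chain counts. A reproducible STM2457 peak overlapped 628 of the 654 dense chains (96.0%). This share rose with chain size, from 48.0% of single sites to 88.4% of 4-site chains. Of the dense chains, 64 of the 89 with no listed STM2457 site overlapped one.

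Applied to the other lists, the same rule gave 608 dense chains in U87, of which 460 overlapped a U87-R one. It gave 19 in the STM2457 list, holding 98 of its 12791 sites (0.77%), of which 14 overlapped a U87-R one. In STM2457 5 of the 19 were cap-proximal, against 7 of 654 in U87-R.

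To compare chains as units, the scores of all called bases inside a chain's span and strand were summed per library (unlisted bases count as 0) and fitted with limma on log2(sum + 1), STM2457 against U87, over all 20371 chains. Sums grow with the span and are not compared between genes. Of the 654 dense chains 542 were lower and 12 higher under STM2457 at an adjusted p under 0.05, that is 82.9% and 1.83%. Over all chains 57.0% were lower and 6.94% higher. The median log2 difference was -1.27 for the dense chains and -1.71 for all chains, the overall shift against which each change below is to be read. The direction depends on the scaling: with every library's median set equal, 127 dense chains were lower and 257 higher, and 5451 and 5477 of all chains. With sums scaled to library totals the counts were 409 lower and 40 higher, and the median over all chains was -1.30. The input libraries were not used here to choose among the scalings, and which scaling is the right reference was not tested.

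The difference in medians between dense and other chains also turned with the pseudocount. By chain size the median log2 difference was -1.94 for single sites, -1.67, -1.49 and -1.38 for chains of 2, 3 and 4 sites, and -1.27 for the dense chains. With a pseudocount of 10 it was -0.87 for single sites, -1.28, -1.32 and -1.29 for chains of 2, 3 and 4 sites, and -1.22 for the dense chains. The order thus turned against single sites and not against chains of 2 to 4 sites. The share of chains called lower rose with size under both, from 48.5% for single sites to 82.9% with the first and from 43.2% to 82.9% with the second. Larger chains also had larger sums (medians in U87 of 24.2 for single sites and 327 for dense chains).

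**Figure D3:**
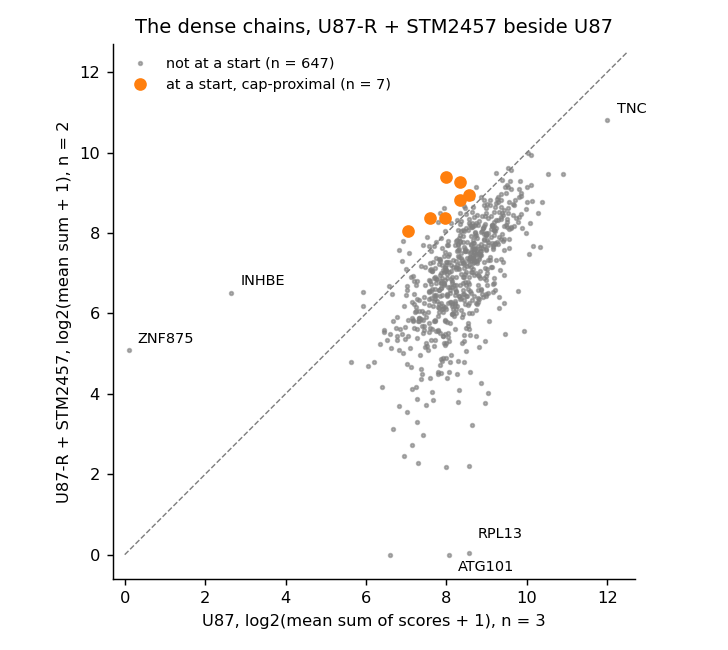
Each point is 1 of the 654 dense chains, at log2(mean sum of scores + 1) in U87 (x axis, 3 libraries) and in U87-R + STM2457 (y axis, 2 libraries), with the line of equal values dashed. Most points lie below the line, the 7 cap-proximal chains (orange) lie above it, and INHBE and ZNF875 stand apart at low U87 values.

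The largest chain was in TNC, the gene of tenascin-C, an extracellular matrix glycoprotein abundant in glioma. It spanned 915 nt at chr9:115085941-115086855 (hg38, minus strand), 31302 nt from the annotated 5′ end of the gene, and held 18 sites, of which 18 were in the U87 list and 12 in the STM2457 list. Its summed scores were 4057, 4216 and 4061 in the U87 libraries, 4477, 4816 and 4372 in those of U87-R and 1730 and 1836 under STM2457. The STM2457 libraries lay below every untreated library, at 0.43 times the U87 mean (log2 difference -1.21 ± 0.05 SE, adjusted p = 3.4e-06, limma). The decrease was not spread evenly. The other 12 sites kept 54.6 to 112 on average, whereas the site 50 nt into the chain fell from 136, 130 and 126 in U87 to no listing in either STM2457 library, as did 5 more. Next to it, 27 nt further on, the third site kept 99.1 and 98.4 of its 139, 134 and 129.

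ARID1A encodes a DNA-binding subunit of the SWI/SNF chromatin remodelling complex. Its chain of 17 sites spanned 920 nt at chr1:26779813-26780732, 1372 nt before the annotated 3′ end, with 17 sites in the U87 list and 6 in the STM2457 list. The sums were 908, 1093 and 1042 in the U87 libraries, 1108, 937 and 1072 in those of U87-R and 351 and 428 under STM2457 (log2 difference -1.38 ± 0.12 SE, adjusted p = 5.2e-05, limma). The 2 treated libraries were below all 6 untreated ones. The seventh site kept 49.0 and 88.8 beside 65.9, 73.0 and 71.4 in U87, and 5 of the 17 were in neither treated library.

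JUN encodes the AP-1 subunit c-Jun and is a gene with a very short-lived mRNA. Its 12 sites at chr1:58781698-58782199 were all in the U87 list and 3 were in the STM2457 list. The sums were 1839, 1992 and 1857 in the U87 libraries, 2052, 2050 and 1811 in those of U87-R and 660 and 757 under STM2457 (log2 difference -1.42 ± 0.09 SE, adjusted p = 9.1e-06). Of the listed sites the eighth, 305 nt into the chain, scored highest under STM2457. It had 183.3 and 191.9, above its 155.7, 168.0 and 160.2 in U87. The sums also hold called bases of the span that are not listed U87-R sites. The tenth and eleventh sites, which scored 147 to 165 in U87, were in neither treated library.

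**Figure D4:**
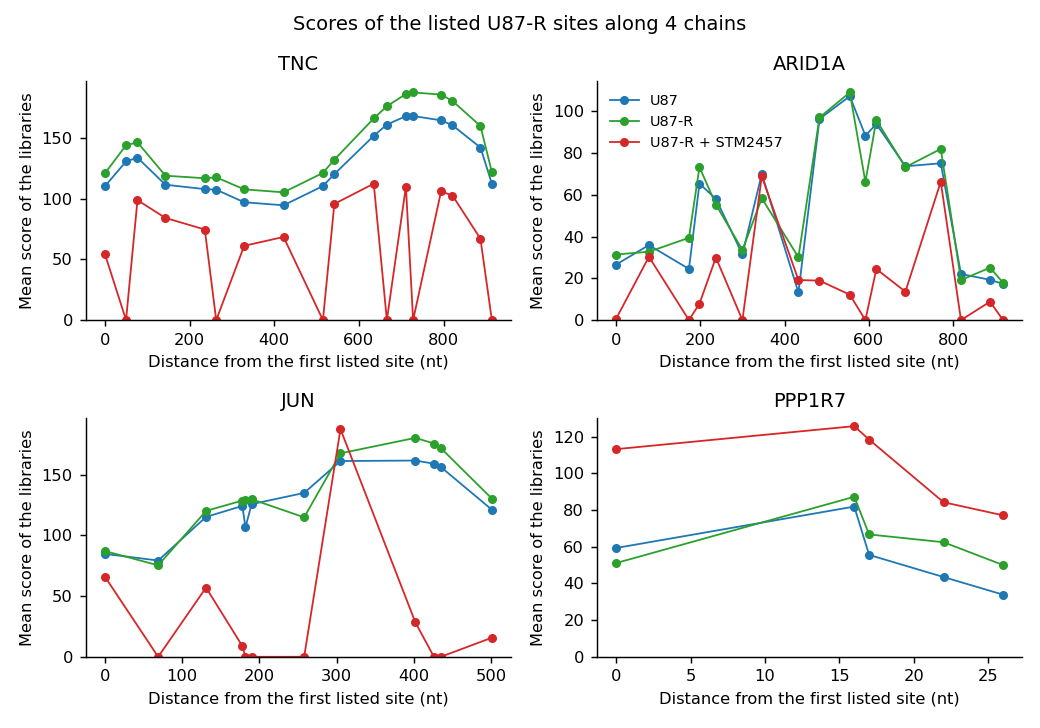
Mean score of each listed U87-R site (y axis) by its distance in nt from the first site in the direction of transcription (x axis), for U87 (blue, 3 libraries), U87-R (green, 3) and U87-R + STM2457 (red, 2). In TNC, ARID1A and JUN the treated line drops to 0 at some sites and stays high at their neighbours, and in PPP1R7, at a transcript start, it lies above both others at all 5 sites.

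The other 7 of the 10 largest chains lay in genes of varied function. Of 5 chains with 11 sites, the 4 with the highest combined scores are among these 10, and the one in CSTF2T is not. Those in ITGA3 (the integrin alpha-3 subunit, 11 sites), FOSL2 (the AP-1 subunit Fra-2, 11 sites), PHF20 (a reader of methylated histones, 11 sites), TBC1D10B (a Rab GTPase-activating protein, 11 sites), ARHGAP35 (13 sites) and TNKS1BP1 (a tankyrase-binding protein, 15 sites) were lower under STM2457. In these 6 the STM2457 mean was 0.33 to 0.53 times the U87 mean. ITGA3 had sums of 1256, 1250 and 1456 in the U87 libraries, 1531, 1259 and 1535 in those of U87-R and 436 and 437 under STM2457. SLC38A10, an amino acid transporter gene with 14 sites, did not pass the test. Its sums were 699, 813 and 831 in the U87 libraries, 1257, 839 and 1174 in those of U87-R and 751 and 776 under STM2457 (log2 difference -0.03 ± 0.17 SE, adjusted p = 0.89), so the treated libraries overlapped U87. All 10 of these chains, with library medians centred, had a log2 difference above 0, from 0.03 for ITGA3 to 1.59 for SLC38A10. The chains in TNC, ARID1A, TNKS1BP1, ARHGAP35 and SLC38A10 were then called higher (adjusted p = 0.028, 0.0495, 0.011, 0.0015 and 1.9e-05, limma). The rest of the 10 were not called in either direction.

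**Figure D5:**
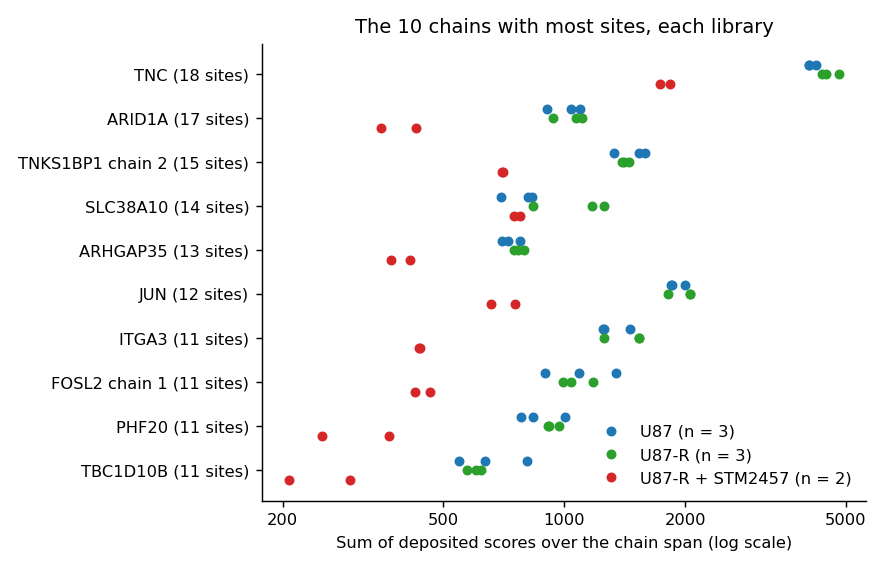
Sum of deposited scores over each of the 10 chains with most sites (x axis, log scale), 1 point per library, for U87 (blue), U87-R (green) and U87-R + STM2457 (red). The treated libraries lie left of all untreated ones except in SLC38A10.

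Several genes held more than 1 chain. TNKS1BP1 held 2. The 15-site chain fell to 699 and 706 under STM2457 from 1534, 1330 and 1589 in U87 (log2 difference -1.07 ± 0.08 SE, adjusted p = 2.2e-05). The 7-site chain, 415 nt long, had 611 and 662 beside 695, 638 and 666 (-0.07 ± 0.08, adjusted p = 0.46). In CLIP2, which encodes a linker of membranes and microtubules, all 3 chains fell, with log2 differences of -2.55, -2.44 and -2.52, and only 2 of their 20 sites were in the STM2457 list. In CA12 (carbonic anhydrase 12), which overlaps a second listed gene there, all 3 chains fell, by -1.23, -0.90 and -1.44. In TENM3, which encodes a teneurin adhesion receptor, the values were -2.02, -0.21 and -0.67, and the second did not pass the test (adjusted p = 0.17). The TNKS1BP1 and CA12 chains and the second and the third TENM3 chains were above 0 once library medians were centred. All of these but the first and the third CA12 chains were then called higher (adjusted p from 7.5e-05 to 0.011, limma). Scaled to library totals, the second CA12 and the third TENM3 chains no longer passed the test (adjusted p = 0.059 and 0.41). Differences between chains of the same gene were not tested.

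Of the 3 chains with every site in both other lists, those in CEBPD (a C/EBP transcription factor) and PAMR1 (a secreted peptidase-domain protein) fell and that in NUDCD3 (a dynein-associated cochaperone) did not pass the test. CEBPD had 512, 489 and 512 in U87 and 242 and 251 under STM2457, at 0.49 times the mean. The PAMR1 call (adjusted p = 0.024) was lost without the first U87 library or either STM2457 library (adjusted p = 0.054, 0.19 and 0.095). It was also lost with the replicate block (adjusted p = 0.054) and when scaled to library totals, where the log2 difference turned to 0.22 (adjusted p = 0.23). NUDCD3 had 510, 567 and 557 in U87 and 439 and 464 under STM2457 (log2 difference -0.27 ± 0.11 SE, adjusted p = 0.055), without overlap. All 5 sites of each stayed above 10 in both treated libraries. All 3 had differences above 0, from 0.59 to 1.35, once library medians were centred. The chains in CEBPD, PAMR1 and NUDCD3 were then called higher (adjusted p = 0.018, 0.00014 and 2.8e-05, limma).

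The 5 largest chains with no site in the STM2457 list lay in ARTN (the neurotrophic ligand artemin, 9 sites), IL36B (an interleukin-36 cytokine), CLIP2, PDE4B (a cyclic AMP phosphodiesterase) and RTL8B (a retrotransposon-derived gene), with 8 sites each in the last 4. PDE4B had sums of 477, 524 and 565 in the U87 libraries, 406, 299 and 453 in those of U87-R and 9.56 and 20.9 under STM2457. IL36B had 1163, 605 and 1173 in the U87 libraries, 1287, 401 and 1123 in those of U87-R and 41.2 and 51.0 under STM2457, and its second U87 and U87-R libraries were the lowest of their groups. For ARTN the U87 libraries spread from 91.1 to 533 and the treated ones stood at 18.2 and 26.0. All 5 were called lower, with log2 differences from -1.98 (RTL8B) to -5.10 (PDE4B), past the median of all chains. ARTN and RTL8B no longer passed the test once library medians were centred.

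The largest decreases lay in RPL13, ATG101, TRIO, ZFP36L2 and AHNAK2, and in each of these chains no site was in the STM2457 list. RPL13 encodes a ribosomal protein, ATG101 a component of the autophagy-initiating complex, TRIO a guanine nucleotide exchange factor, and ZFP36L2 an mRNA-decay factor that binds AU-rich elements. The RPL13 chain (6 sites, chr16:89563056-89563247) had sums of 433, 212 and 483 in the U87 libraries, 385, 181 and 412 in those of U87-R and 0 and 0.07 under STM2457 (adjusted p = 6.2e-06). ATG101 had 206, 298 and 298 in U87 and was listed at 0 in both treated libraries (adjusted p = 1.9e-06), as was the second AHNAK2 chain, with 75.2, 56.5 and 157 in U87 (adjusted p = 2.4e-05). In TRIO the treated libraries had 0 and 7.27 beside 339 to 401 in U87, and in ZFP36L2 0 and 16.7 beside 365 to 418. These 5 stayed lower, past the threshold, under all 3 scalings. Their order depends on the pseudocount of 1, since the treated sums were at or near 0: with a pseudocount of 10 AHNAK2 had a log2 difference of -3.30, smaller in size than those of PDE4B (-4.43) and IL36B (-4.08).

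The cap-proximal chains went the other way. The 7 were in PSMC2, HMGB1, PPP1R7, AP2M1 (a clathrin adaptor subunit), NQO1, ATP5IF1 (an inhibitor of the mitochondrial ATP synthase) and FDPS (farnesyl diphosphate synthase of the mevalonate pathway). Of their 37 sites 28 were in the STM2457 list (75.7%, Wilson 95% interval 59.9 to 86.6), beside 31.3% in the other 647 chains. Among other U87-R sites in cap-proximal chains the share was 82.5%. All 7 had sums above the U87 mean under STM2457, and 6 were called higher, whereas 542 of the other 647 were called lower and 6 higher. Both scalings gave 7 higher. Without either STM2457 library 3 were called higher, without U87 library 1 or 3 it was 4 and without library 2 it was 7, and without any 1 U87-R library 5. The 50 nt limit and the group were set from the gene annotation after the files had been seen.

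NQO1 had the highest rise of the 7. Its 5 sites at chr16:69726453-69726562 had summed scores of 188, 322 and 246 in the U87 libraries, 487, 324 and 456 in those of U87-R and 756 and 596 under STM2457 (log2 difference 1.44 ± 0.26 SE, adjusted p = 0.0019). The U87-R libraries, which had no inhibitor, were already all above those of U87. PPP1R7 had 287, 323 and 353 in the U87 libraries, 354, 303 and 461 in those of U87-R and 613 and 628 under STM2457 (0.95 ± 0.18, adjusted p = 0.0023). FDPS had 113, 133 and 146 in the U87 libraries, 181, 163 and 189 in those of U87-R and 244 and 280 under STM2457 (1.00 ± 0.16, adjusted p = 0.00091). In AP2M1 the groups overlapped (255, 511 and 373 beside 431 and 554, adjusted p = 0.20).

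Apart from these, the largest increases over U87 were in the only 2 chains with no site in the U87 list. INHBE encodes the inhibin beta-E subunit, a TGF-beta family member. Its 7-site chain had sums of 0.0011, 0.026 and 15.7 in the U87 libraries, 660, 82.4 and 491 in those of U87-R and 98.1 and 82.9 under STM2457. The ZNF875 chain, in a zinc finger gene, had 0, 0 and 0.20 in the U87 libraries, 169, 140 and 140 in those of U87-R and 34.0 and 32.3 under STM2457. In both the treated libraries were above U87, and in ZNF875 they were below every untreated U87-R library. Because the 2 were chosen for their absence from U87, these values are a description.

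Grouped by the function of the host gene, with lists chosen with earlier results of these data known, most chains of the lists were lower on the unscaled sums. Of all 20371 chains 654 were dense. The share of all genes with listed sites that hold a dense chain was not computed, so nothing is read from the gene counts below. Since 82.9% of all dense chains were called lower, nothing is read from the counts of lower chains in the lists either. With library medians centred the list medians turned positive except for the chromatin, Hippo, cytokine and ribosomal lists. Of the immediate early and AP-1 genes, which encode the first transcription factors and decay factors induced by growth signals, 12 of 30 held a dense chain, with 14 chains and 94 sites. Of these 92 were in the U87 list and 36 in the STM2457 list. Lower under STM2457 were 12 of the 14 and none was higher, with a median of -1.15 (0.47 with library medians centred, 3 lower and 7 higher). Over all 90 chains of any size in these genes 64 were lower and 2 higher, with a median of -1.35. IER3, a survival gene induced by stress, had 9 sites and sums of 1257, 1437 and 1188 in U87 and 217 and 186 under STM2457. It was singled out after its values were seen.

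Of the MAPK feedback and receptor tyrosine kinase genes 9 of 30 held 10 chains. Lower were 8 and none was higher (median -0.90, and 0.72 with library medians centred). Over all 113 chains of these genes 84 were lower and 4 higher, with a median of -2.25. IRS1, the insulin receptor substrate, had 353, 458 and 455 in the U87 libraries, 458, 358 and 385 in those of U87-R and 247 and 249 under STM2457 (log2 difference -0.75, adjusted p = 0.0037). SPRED1, an inhibitor of RAS signalling, had 358, 413 and 416 in the U87 libraries, 603, 419 and 392 in those of U87-R and 266 and 303 under STM2457, without overlap but with an adjusted p of 0.057. Both were above 0 (0.87 and 1.15) and called higher once library medians were centred (adjusted p = 0.00039 and 0.00020, limma). Scaled to library totals, IRS1 no longer passed the test (adjusted p = 0.068).

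The chains of chromatin regulators were lower in 5 of 5, with a median of -1.98, equal to the median of -1.98 over all 237 chains of these genes. Of those 237 chains 153 were lower. NSD2, a histone H3K36 methyltransferase gene, had 298, 387 and 347 in U87 and 48.2 and 29.3 under STM2457. Transcription factors of the zinc finger, forkhead and homeobox families had 5 of 5 lower (FOXK2, a forkhead factor, -1.25 and -0.99), beside 105 of all 187 chains of these genes. Extracellular matrix and adhesion genes had 4 of 4 (TNC and ITGA3 above), beside 45 of 76. Cytokines and inflammatory regulators had 5 of 5, beside 58 of 77. In the last list IRF2BP2, a corepressor, had 938, 791 and 1001 in U87 and 602 and 651 under STM2457. Its relative IRF2BPL had 442, 508 and 599 in U87 and 75.8 and 180 under STM2457. Scaled to library totals, the IRF2BP2 difference was -0.03 (adjusted p = 0.90, limma), and 4 chains of this list were lower.

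Of the Notch, WNT, BMP and TGF-beta genes both chains were lower, in the ligand genes WNT7B (-1.41) and TGFB1 (-1.40), beside 85 of all 144 chains of these genes. Of the Hippo genes 3 of 3 were, in AMOTL2 (a scaffold of YAP, -2.27) and FAT1 (an atypical cadherin), beside 43 of 75. Of the cell cycle and p53 genes, MDM2, the p53 ubiquitin ligase, had 500, 582 and 483 in U87 and 289 and 369 under STM2457 (-0.67, adjusted p = 0.0100, and 0.084 without the first STM2457 library), and PMAIP1, which encodes the BH3-only protein NOXA, fell by 0.90. The DNA repair genes held 1 dense chain among 14 genes with listed sites and 41 chains of any size. It was in MSH6, a mismatch repair subunit, with 356, 444 and 433 in the U87 libraries, 501, 510 and 529 in those of U87-R and 323 and 348 under STM2457 (-0.28 ± 0.12 SE, adjusted p = 0.062). VEGFA, the angiogenic growth factor, had 2 chains, near each end of the gene: the first fell to 169 and 159 from 617, 654 and 685, and the second to 241 and 234 from 609, 633 and 652. The lncRNAs NEAT1 (-0.84; adjusted p = 0.0071, and 0.052 without the first STM2457 library) and TUG1 (-1.77) each held 1 chain and both were lower. None of the 21 genes of the m6A machinery held a dense chain, though 20 had listed sites, in 88 chains.
With library medians centred, NEAT1, IRF2BP2, MDM2, PMAIP1, MSH6, WNT7B, TGFB1, the second VEGFA and FAT1 chains and both FOXK2 chains were above 0. Among them NEAT1, IRF2BP2, MDM2, PMAIP1, MSH6 and both FOXK2 chains were called higher (adjusted p from 9.7e-05 to 0.026, limma). NSD2, IRF2BPL, AMOTL2, TUG1 and the first VEGFA chain stayed below 0, and only NSD2 and VEGFA still passed the test. Scaled to library totals, NEAT1 and MDM2 no longer passed it (adjusted p = 0.16 and 0.35).

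The lines were also set side by side without treatment. The 3 U87-R libraries were all above the 3 of U87 in 113 of 654 chains (17.3%) and all below in 21 (3.21%). Over all chains these shares were 13.2% and 3.06%. The chains were chosen from U87-R, so nothing is read from these counts. Summed over the dense chains, the scores were 8.30 to 9.11% of a library's total in U87, 8.40 to 9.02% in U87-R, and 5.38 and 5.62% under STM2457.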

How the data were processed

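m6A-eCLIP was made in 3 U87, 3 U87-R and 2 STM2457-treated U87-R samples by a commercial provider. The submitters' processing notes name UMI-tools, cutadapt, STAR and the build hg38. No source used here gives their versions, the callers or the score's formula. For each library the authors deposited called bases with a score, which equals the lowest of 4 scores given in another column, and for each group reproducible sites and peaks with a score and the fraction of libraries in which each passed. A site's combined score equals the geometric mean of its libraries' scores of at least 10 for 96.2% of U87-R sites. Depth is unknown, so no counting precision can be given for a score.

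Positions were made 1-based. Host genes are RefSeq genes of GRCh38.p14 on the chain's strand. For 107 chains the gene's strand came from at least 80% of at least 5 called bases, and 8 chains lie in more than 1 gene. Chain sums were tested with limma 3.58.1 (R 4.3.3) on log2(sum + 1) with a mean-variance trend, 3 group means in 1 fit and Benjamini-Hochberg adjustment over all chains. A chain had to reach a sum of 10 in 2 or more libraries, which all 20371 did. Markers whose strand no table gave were summed over both strands. The script was tested on simulated data. Shares per library were compared by exact permutation (scipy 1.17.1). No read counts were held, so no count test was run.

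The members, host-gene lists and marker lists were chosen with earlier results of these data known. Chains named were the 10 with most sites, those of the 5 genes with most chains, up to 5 with every site in both other lists, with none in the STM2457 list and with none in the U87 list, the 5 largest changes per direction without overlap, up to 2 per host-gene list, and those at the size limit, except chains not reported here; the remaining cap-proximal chains were added after their values were seen. Alternatives tried were other gap, size and score limits, sharing within 2 bases, a pseudocount of 10, no filter, 2 scalings, a replicate block, listed bases only, and leaving out each library.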

Additional observations from a re-analysis of the deposited data

How the results depend on the processing

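The number of dense chains followed the rule: a gap of at most 50 nt gave 103, 200 nt gave 1481, at least 4 sites 1501, at least 6 sites 294 and sites passing in all 3 U87-R libraries 317. With the last, 96.2% of member and 90.5% of other sites were in the U87 list, and 37.8% and 35.9% in the STM2457 list. With a gap of 50 nt, 91.0% of member and 79.4% of other sites were in the U87 list and 34.3% of member sites in the STM2457 list, and with at least 6 sites 79.0% of other sites were in the U87 list.

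Scaling moved the calls most. With library medians centred 127 dense chains were lower and 257 higher, and 5451 and 5477 of all chains; scaled to library totals 40 dense chains and 2339 of all chains were higher. The cause was not tested. Leaving out each library in turn gave 473 to 550 dense chains lower and 6 to 15 higher, and 10328 to 11711 of all chains lower and 899 to 1448 higher, the fewest higher without either STM2457 library. The differences in shares called ran from -44.3 to -42.6 points for member sites, from -39.9 to -37.8 for other sites and from -4.83 to -4.34 between them. A fit that leaves 1 STM2457 library assumes that it varies like the other groups. With the replicate number as a block 507 dense chains were lower and 10 higher, and 10917 and 1194 of all chains. Same-numbered U87 and U87-R libraries correlated in their deviations with r = 0.05, 0.20 and 0.08, so the numbers were not taken as pairs. The filter on low sums left out no chain.

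With library medians centred, these log2 differences turned positive: TNC 0.42, ARID1A 0.24, TNKS1BP1 chain 2 0.55, SLC38A10 1.59, ARHGAP35 0.72, JUN 0.20, ITGA3 0.030, FOSL2 chain 1 0.32, PHF20 0.10, TBC1D10B 0.22, FOXK2 chain 1 0.37, NEAT1 0.78, IRF2BP2 1.09, WNT7B 0.21, MDM2 0.95, TNKS1BP1 chain 1 1.55, CA12 chain 3 0.18, CA12 chain 1 0.39, IRS1 chain 1 0.87, TGFB1 0.22, SPRED1 1.15, FOXK2 chain 2 0.63, VEGFA chain 2 0.21, CEBPD 0.59, PAMR1 1.34, NUDCD3 1.35, TENM3 chain 3 0.95, TENM3 chain 2 1.41, MSH6 1.34, FAT1 chain 2 0.12, CA12 chain 2 0.72, PMAIP1 0.72. Among these JUN, ITGA3, FOSL2 chain 1, PHF20, TBC1D10B, WNT7B, CA12 chain 1, CA12 chain 3, TGFB1, VEGFA chain 2 and FAT1 chain 2 were not called. The rest were called higher. Scaled to library totals, these turned positive: SLC38A10 0.48, TNKS1BP1 chain 1 0.44, TENM3 chain 2 0.29, NUDCD3 0.24, PAMR1 0.22, MSH6 0.22, SPRED1 0.028. SLC38A10 and TNKS1BP1 chain 1 were then called higher. The lower calls of IRF2BP2, NEAT1, MDM2, IRS1 chain 1, PAMR1, TENM3 chain 3 and CA12 chain 2 were lost. SLC38A10 also turned positive with the replicate block (0.027), and leaving out each library it ran from -0.11 without the first U87 library to 0.018 without the third, and was above 0 without the second too (0.0028). Depth is unknown, so a base without a score cannot be told from one too thinly covered to be called.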

Other observations

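The TNC chain had a regular spacing. Of its site pairs 10 were exactly 93 nt apart, and 15 of its 18 sites fell into 2 series, one of 8 sites from 50 to 887 nt into the chain and one of 7 sites from 77 to 914 nt, each at multiples of 93 nt. Sites of the same series differed under STM2457, since 6 of the 8 and 4 of the 7 were in the STM2457 list. Of the other 653 dense chains, none had more than 4 pairs at its commonest distance, and in 521 every distance occurred once. One chain of TNXB, a gene of the same tenascin family, also had 93 nt as its commonest distance, with 3 pairs among 5 sites. Its sums were 490, 685 and 896 in the U87 libraries, 507, 453 and 487 in those of U87-R and 144 and 102 under STM2457. In SON, which encodes a nuclear speckle protein, 4 pairs of the 7 sites were 30 nt apart. The part that repeated sequence has in these distances was not tested, and the chains were singled out after the distances were seen.

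Beside the 2 chains that had no U87 site, the widest gap in each direction between the untreated lines was in G0S2 (higher in U87-R) and LINC01119 (lower). Both were also chosen after their values were seen. G0S2, which encodes an inhibitor of the lipase ATGL, had 154, 268 and 185 in the U87 libraries, 811, 636 and 791 in those of U87-R and 131 and 177 under STM2457. The lncRNA LINC01119 had 530, 471 and 478 in the U87 libraries, 157, 211 and 197 in those of U87-R and 8.01 and 17.3 under STM2457. HBEGF, the gene of a heparin-binding ligand of the EGF receptor, had none of its 5 sites in either STM2457 library, with sums over its span of 490, 458 and 451 in U87 and 24.8 and 11.7 under STM2457.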
